A study of Pleurotus ostreatus with 53 samples.

Results

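The genes described here lie near transposable elements (TEs) in Pleurotus ostreatus, the oyster mushroom, without touching them. They are the genes of the deposited mRNA table whose nearest TE copy on the same scaffold lies more than 1000 and at most 5000 bp away, counted between the nearer ends of gene and copy. This rule uses positions and no measured value, and it took 937 of 11820 genes (7.93%). A further 21 genes overlapped a TE copy, 433 lay within 1000 bp, 952 lay at 5 to 10 kb, and 9477 lay more than 10 kb away. Distance classes are named by their bounds in kb, each without its lower bound.

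Transposable elements are stretches of DNA that can copy or move themselves, and fungi, like plants and animals, keep many of them silent by methylating cytosines and packing the DNA tightly. Methylation laid on an element can run on into the DNA beside it, and genes caught in such a stretch may be transcribed weakly or not at all. Small RNAs are short RNA molecules that in many organisms guide such silencing. In Pleurotus the vegetative mycelium can be a monokaryon, whose cells hold a single kind of nucleus, or a dikaryon, whose cells hold nuclei of both mates. Under suitable conditions a dikaryon forms primordia, the small initials that grow into fruiting bodies.

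The study compared 6 groups, which differ in strain and tissue and for which the labels give no treatment, allele or age. PC15 and PC9 are monokaryotic strains sampled as mycelium. HyB is a dikaryon that joins the nuclei of PC9 and PC15, also sampled as mycelium and labelled N001_HyB. N001 is a dikaryotic strain sampled as mycelium, primordium and fruitbody, and some of its labels spell the strain N0001. Each group had 3 biological replicates per the series' design text, with mRNA, small RNA and bisulfite libraries, except that the primordium had 2 bisulfite libraries, so 53 libraries were used. A value from a dikaryon averages over both kinds of nucleus, and a value from a whole tissue averages over its cells, so that fewer cells of a kind and less RNA per cell cannot be told apart.

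The mRNA values are RPKM, reads scaled to gene length and to mapped reads, and the library totals behind them ranged from 19628882 to 30123572 reads. Small RNA values are given as RPM, reads scaled to 1000000 reads in genes and TE copies, and those reads numbered 191411 to 5746479 per library. Methylation is the level of CG methylation over a gene in percent, and the coverage behind it is unknown. The genes carry numbers only: none of the numbers matched an identifier among the 11849 genes of RefSeq's table for the PC9 assembly, so no gene's product or role is given. Positions are those of the files, whose genome build is not given in the sources used here.

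The 937 genes lay on 12 scaffolds, at a median distance of 2957 bp from the nearest TE copy. Their median length of 1342 bp was close to the 1413.5 bp of all genes. Several genes often shared a nearest copy: 439 of the 1051 TE copies served all 937, and 283 of those served at least 2 genes, up to 8. Values of such neighbours are not independent. The nearest copy was a Gypsy element for 641 genes, a Copia element for 120, a LINE for 68, a HELPO element for 53, a DIRS element for 50 and a TIR element for 5. Gypsy, Copia and DIRS elements and LINEs move through an RNA copy, whereas TIR elements are DNA transposons and HELPO is the Helitron family of this fungus. A methylation level was given for 896 of the 937 genes in at least 1 library and for 800 in every library. The other 96 with a level lacked it in PC9. For mRNA 755 genes passed the condition for testing, 3 or more libraries with 1 RPKM or above, while 18 were listed at 0 RPKM in every library.

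Mean methylation of these genes was several times that of genes far from TEs, and within the 1 to 5 kb range it was highest at 1 to 2 kb. In PC15 the mean over the genes was 5.84%, 5.95% and 6.05% in the 3 libraries. In PC9 it was 11.6%, 11.8% and 11.8%, and in HyB 9.27%, 8.89% and 8.61%. The N001 libraries were the highest, with 16.4%, 15.6% and 16.1% in mycelium, 16.3% and 16.6% in primordium, and 16.3%, 16.4% and 15.7% in fruitbody. No library of PC15, PC9 or HyB overlapped another of these groups or N001, while the N001 tissues overlapped one another. The group means were 5.95% ± 0.11 in PC15, 11.7% ± 0.14 in PC9, 8.93% ± 0.33 in HyB, 16% ± 0.40 in N001 mycelium, 16.4% ± 0.20 in primordium and 16.1% ± 0.34 in fruitbody (SD, n = 3, for primordium n = 2). Over all genes of the table the corresponding means were 2.27%, 3.47%, 3.10%, 5.25%, 5.42% and 5.33%.

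The PC9 mean covers fewer genes than the others. Over the 800 genes with a level in every library, PC9 at 11.7% lay beside the N001 tissues at 11.9%, 12.2% and 12%, with PC15 at 4.18% and HyB at 7.42%. The HyB level was thus between those of its parents, and PC9 and N001, which stood apart in the larger set, lay close together in the common one.

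**Figure D1:**
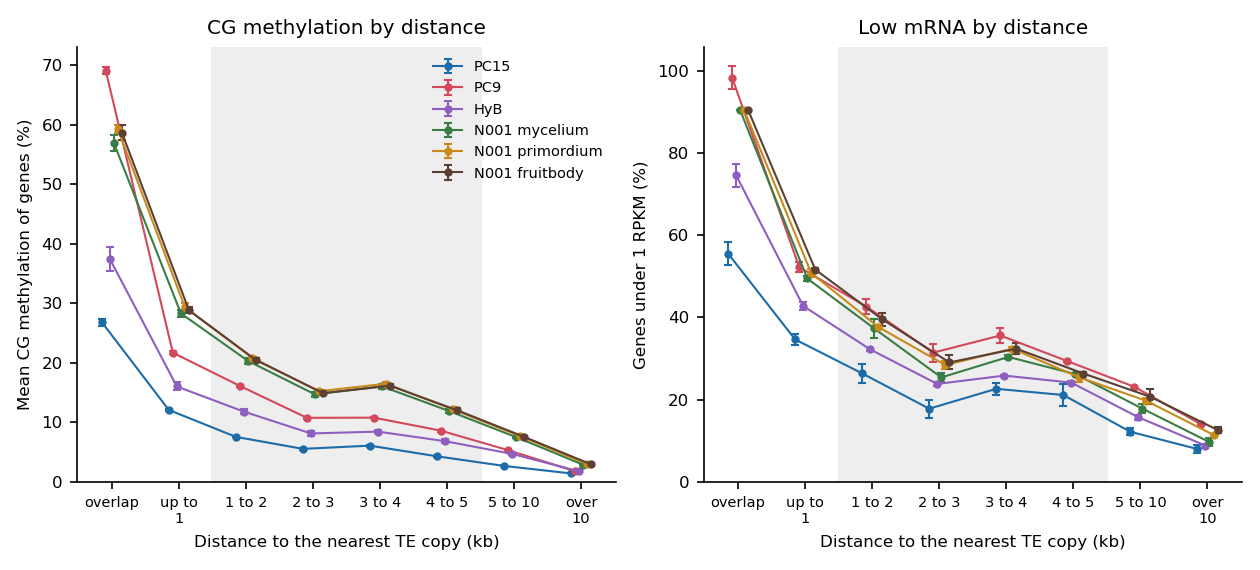
Mean CG methylation (percent) and share of genes under 1 RPKM (percent) by distance to the nearest TE copy, for each of the 6 groups; points are group means, bars are 1 SD over libraries, lines join the classes of a group, and the 1 to 5 kb classes are shaded. Both measures are highest in genes that overlap or adjoin a TE and are lower, without an even fall, in the 1 to 5 kb classes and lowest in the genes more than 10 kb away, which in N001 mycelium are at 2.85% methylation and 9.63% under 1 RPKM.

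Split by distance, methylation in N001 mycelium was 20.3% ± 0.53 at 1 to 2 kb, 14.7% ± 0.36 at 2 to 3 kb, 16% ± 0.42 at 3 to 4 kb and 11.9% ± 0.28 at 4 to 5 kb (SD over 3 libraries). The means did not fall evenly: the third class stood above the second by more than the spread between libraries. That spread does not measure variation between genes, and the 2 classes hold different genes, 243 and 204 with a level. Whether the classes differ beyond such variation was not tested. Genes within 1000 bp of a TE were at 28.3% ± 0.60 and those overlapping one at 57.0% ± 1.4, whereas genes at 5 to 10 kb were at 7.50% ± 0.15 and those beyond at 2.85% ± 0.080. PC9 followed the same order of distance at 16.1%, 10.7%, 10.8% and 8.57% in the 4 classes, against 5.30% at 5 to 10 kb and 1.76% beyond. PC15 was lower throughout, at 7.54%, 5.52%, 6.06% and 4.27%, against 2.65% and 1.39%. HyB lay between its parents in each of the 4 classes, at 11.8%, 8.11%, 8.42% and 6.81%.

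Values just outside and just inside the edges of the distance range differed by group. At 0.8 to 1 kb methylation averaged 29% in N001 mycelium (74 genes with a level), 21.1% in PC9 (62) and 11.9% in PC15 (73), and at 1 to 1.2 kb 23.2% (46), 16.7% (41) and 9.5% (46). The share under 1 RPKM across that edge went from 51.3% of 78 genes to 42.3% of 52 in N001 mycelium, from 60.3% to 44.2% in PC9 and from 43.6% to 28.8% in PC15. At the far edge methylation averaged 12.3% in N001 mycelium (32 genes), 11.1% in PC9 (30) and 4.24% in PC15 (32) at 4.8 to 5 kb, and 13.1% (37), 5.52% (33) and 5.41% (37) at 5 to 5.2 kb. No test was made of these windows. Among the genes nearest to the outer edge, gene 1021127 (4998 bp) had 53.1% and gene 1033462 (4998 bp) had 72.2% methylation in N001 mycelium, and genes 1060713 (5007 bp) and 1091856 (5012 bp) had 0.190% and 0.487%. At the inner edge, genes 1108793 (999 bp) and 1090812 (995 bp) just outside had 0.135% and 0.217%. Just inside it, genes 1023300 and 1023301 (both 1002 bp from a DIRS_1 copy of 71 bp and both 710 bp long) have no methylation level and could be copies whose reads cannot be told apart.

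The means came from a minority of genes with high methylation among many with almost none. The median over the genes lay between 0.242% and 0.265% in the 6 groups, beside 0.220% to 0.237% over all genes. In N001 mycelium 638 genes were under 1%, 13 were at 1 to 10%, 72 were at 10 to 50% and 173 were at 50% or more. In PC9 641 of 800 genes with a level were under 1% (80.1%) and 109 were at 50% or more. In PC15 667 of 896 were under 1% (74.4%), 187 were at 10 to 50% and 6 at 50% or more. HyB had 32 genes at 50% or more and 194 at 10 to 50%. A gene was counted as methylated at 10% or more. By that count 21.6% of the genes were methylated in PC15, 18.9% in PC9, 25.2% in HyB and 27.2% to 27.3% in the N001 tissues. Beyond 10 kb the shares were 3.59%, 2.67%, 4.21% and 4.63% to 4.68%. The PC9 share is over 800 genes and the PC15 share over 896, so these 2 cannot be ranked. The 96 genes without a PC9 level averaged 20.7% methylation in PC15. Among the 800 genes with a level in every library, 41 were methylated in every group except PC15 and 12 in every group except PC9. In N001 mycelium the methylated share fell from 35.7% at 1 to 2 kb to 24.7%, 26.7% and 20.3% in the next 3 classes.

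The same genes were mostly methylated in all groups or in none. Of the 800 genes with a level in every library, 630 were under 10% in all 6 groups and 102 were at 10% or more in all 6. In those 102 genes the mean ran from 25% in PC15 and 41.3% in HyB to 66.3% to 67.9% in PC9 and the N001 tissues. A further 41 genes were methylated in every group except PC15, at 3.12% there, 54.0% in PC9, 28.2% in HyB and 44.3% in N001 mycelium. Another 12 were methylated in every group except PC9, at 1.66% there, 27.7% in PC15, 22% in HyB and 40.3% in N001 mycelium. The remaining 15 genes had other patterns, among them 5 methylated in PC15 and the 3 N001 tissues and 4 methylated in PC9 alone.

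**Figure D2:**
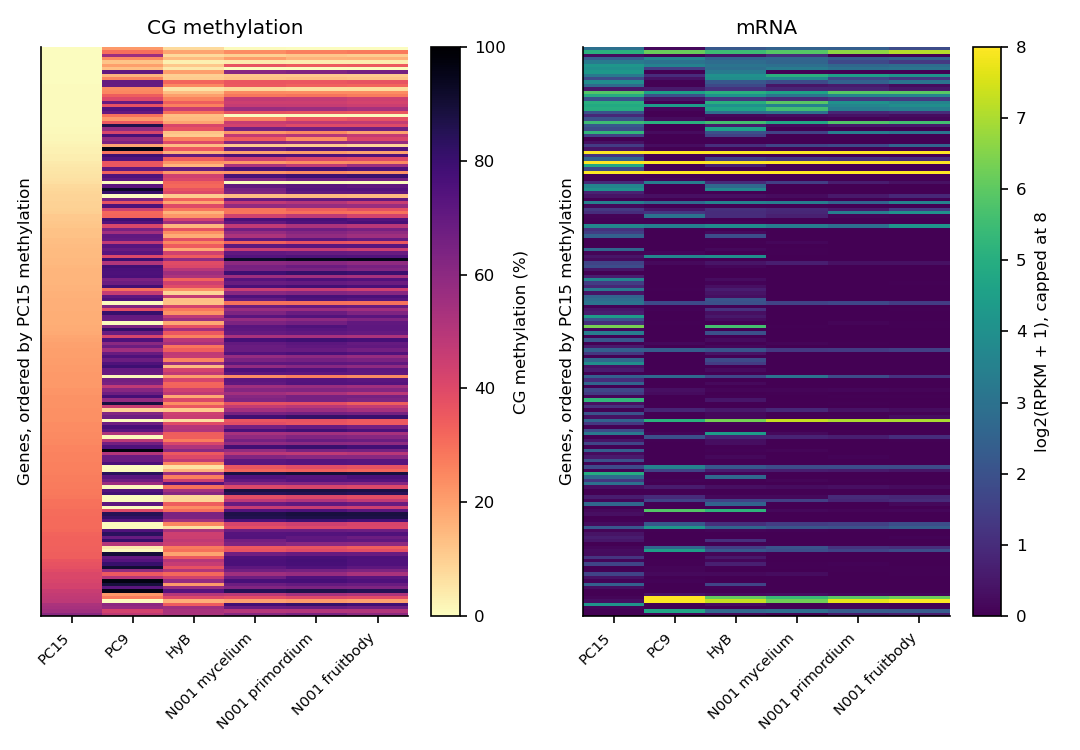
CG methylation (percent, colour scale) in the 6 groups of the genes that were at 10% or more in at least 1 group, each row a gene with a level in every library, ordered by PC15 methylation, beside its mRNA as log2 of RPKM plus 1, drawn up to 8. Most rows are pale in PC15 and dark in PC9 and the N001 tissues, with HyB between them, as in the 102 genes methylated in all groups.

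The most methylated genes overall gave almost no mRNA in the dikaryons. Gene 1109638 (scaffold 11, 1502761 to 1505831, 2293 bp from a Gypsy_2 copy) had 95.8, 95.9 and 95.7% methylation in PC9, 44.3, 46.1 and 45.7% in PC15 and 85.6, 82.6 and 85.2% in N001 mycelium, and its RPKM was at most 0.00936 on average in any group. Genes 161785, 1110089, 1110105 and 1110111 all lay in the first part of scaffold 12, between positions 41005 and 105069, and had 87.1%, 85.7%, 91.7% and 87.6% methylation in N001 mycelium. Gene 1110111 (2898 bp from a LINE_1 copy) gave mRNA in PC15, at 27.8, 28.2 and 34.2 RPKM with 25.5, 29.6 and 25.3% methylation. In PC9 it was at 0.0629, 0 and 0 RPKM with 84.0, 83.1 and 84.0% methylation, and it was listed at 0 in all 9 N001 libraries. Across the set, 72 genes lay within 100 kb of a scaffold end. Scaffold lengths were not at hand, so the far end was taken as the end of the last listed gene or TE copy. The 57 of them with a level averaged 34.0% ± 0.57 methylation in N001 mycelium and the 839 others with a level averaged 14.8% ± 0.39. The same contrast was 31.2% against 10.2% in PC9 and 12.2% against 5.52% in PC15, and 59.7% of the 72 genes were under 1 RPKM in N001 mycelium against 27.9% of the others.

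Low mRNA was more frequent among these genes than over all genes. In PC15 19.9%, 23.8% and 23.2% of the 937 genes were under 1 RPKM in the 3 libraries, and in PC9 37%, 34.5% and 34.4% were. In HyB the shares were 26.8%, 27.0% and 26.7%. In N001 they were 31.4%, 30.1% and 29.5% in mycelium, 32.1%, 31.3% and 31% in primordium and 32.9%, 31.1% and 33.1% in fruitbody. PC15 was the lowest and PC9 the highest, neither overlapping another group, and HyB lay between PC15 and N001 without overlap. The group means of 22.3% ± 2.1, 35.3% ± 1.5, 26.8% ± 0.16, 30.3% ± 0.98, 31.4% ± 0.61 and 32.3% ± 1.1, in the same order, compare with 10.5%, 17.9%, 12.1%, 13.5%, 15.2% and 16.4% over all genes. The median RPKM of the genes was 8.64 in PC15, 5.24 in PC9, 7.76 in HyB, 7.10 in N001 mycelium, 4.82 in primordium and 4.44 in fruitbody, against 16.6, 13.7, 16.7, 15.6, 12.5 and 11.4 over all genes.

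**Figure D3:**
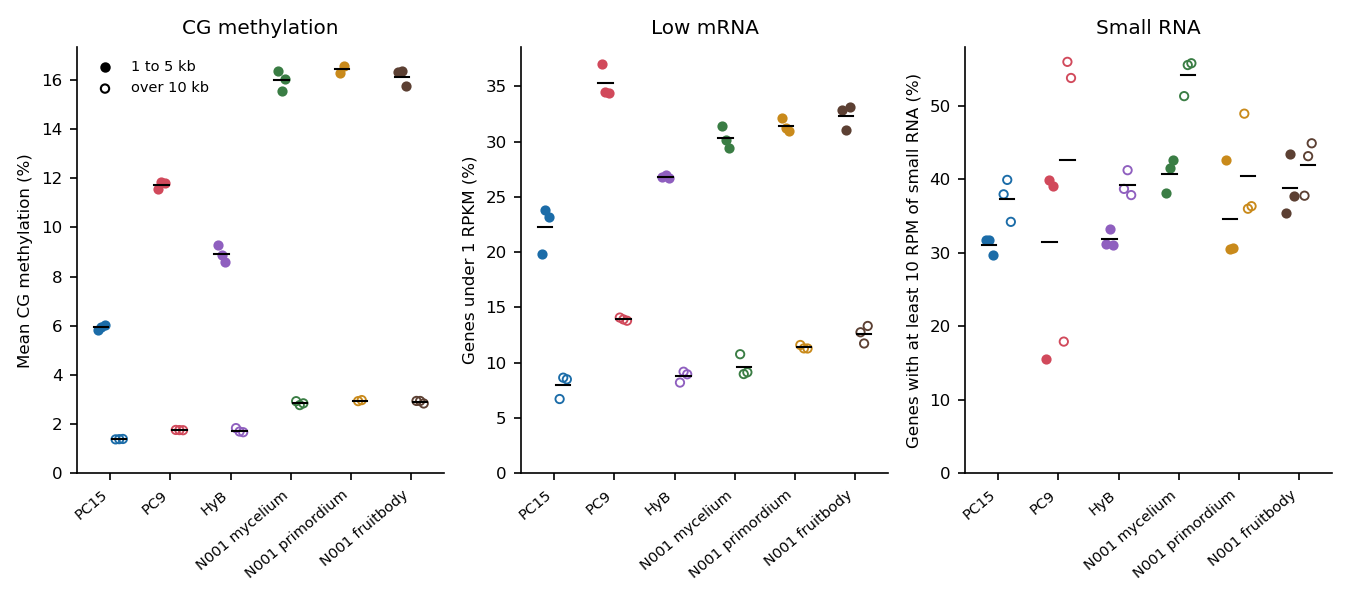
Mean CG methylation, share of genes under 1 RPKM and share of genes with at least 10 RPM of small RNA over the 937 genes, each in percent, for every library of the 6 groups; filled points are libraries, open points the same measure over genes more than 10 kb from a TE, and short lines group means. PC15 is the lowest group in methylation, at 5.84% to 6.05%, and PC9 the highest in genes under 1 RPKM, at 34.4% to 37%, while small RNA shows a PC9 library at 15.6% far below the other PC9 libraries.

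By distance, 37.3% of genes at 1 to 2 kb were under 1 RPKM in N001 mycelium, then 25.4%, 30.4% and 26.2% in the next 3 classes, 17.8% at 5 to 10 kb and 9.63% beyond. The class at 2 to 3 kb was the lowest of the 4 by a small margin over that at 4 to 5 kb, where methylation was lowest. PC9 gave 42.7%, 31.4%, 35.6%, 29.4%, 23.1% and 13.9% over the same 6 classes. There the class at 4 to 5 kb was the lowest of the 4, as it was in PC9 methylation. The genes within 1000 bp of a TE were at 49.5% in N001 mycelium and 52.3% in PC9. Over all 6 groups, 164 of the 937 genes were under 1 RPKM in every group mean and 565 were at 1 or more in every one.

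Within a band of methylation, the share of genes with low mRNA was of similar size 1 to 5 kb and more than 10 kb from a TE in most groups. Of the genes under 1% methylation, 4.39% in N001 mycelium and 4.95% in PC15 were under 1 RPKM, beside 4.69% and 4.13% of the genes in that band more than 10 kb from a TE. PC9 had 10.1% in this band against 7.59% of the distant genes. In the band at 50% or more, 97.7% of 173 genes in N001 mycelium and 99.1% of 109 genes in PC9 were under 1 RPKM, beside 96.7% and 96.1% of the distant genes. In the band at 10 to 50%, 63.6% of 187 genes in PC15 and 70.6% of 194 genes in HyB were under 1 RPKM, beside 56.2% and 60.1%. In N001 mycelium that band held 56.9% of 72 genes under 1 RPKM, beside 53.5% of the distant genes and 80% of 40 genes within 1 kb of a TE. The median level of mRNA did differ: unmethylated genes (under 1%) 1 to 5 kb from a TE had a median of 14.8 RPKM in N001 mycelium, against 20 RPKM for unmethylated genes beyond 10 kb, and 15.1 against 20.8 RPKM in PC15. These are descriptions without a test, since the bands were set on measured levels. Across genes, methylation and RPKM gave a Spearman correlation of -0.469 (PC15, 836 genes) to -0.569 (N001 mycelium, 831 genes) over genes whose nearest TE copy also had a level. Such genes share libraries and often a nearest TE copy, and are not independent.

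**Figure D4:**
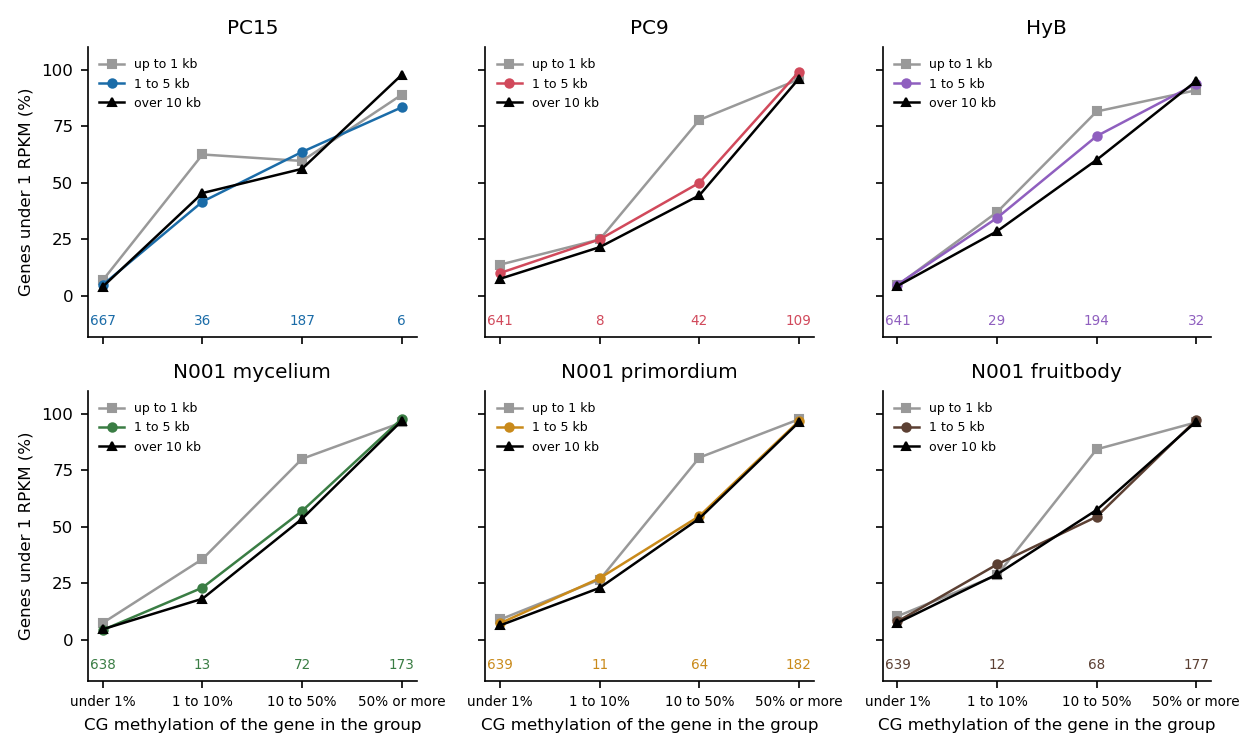
Share of genes under 1 RPKM (percent) by band of CG methylation in the 6 groups, for genes up to 1 kb, 1 to 5 kb and more than 10 kb from a TE; numbers under the points count the genes 1 to 5 kb away. In all 3 sets few genes under 1% methylation and most genes at 50% or more are under 1 RPKM, 4.39% and 97.7% in N001 mycelium for the genes 1 to 5 kb from a TE.

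Methylation of a gene went with that of its nearest TE copy. Where that copy was under 10% methylated, the genes averaged 2.34% in PC15 (344 genes), 1.22% in PC9 (124 genes) and 1.36% in N001 mycelium (249 genes). Genes more than 10 kb from any TE averaged 1.39%, 1.76% and 2.85%, lower than these genes in PC15 and higher in PC9 and N001 mycelium. Where the copy was at 50% or more, the genes averaged 25.6% in PC15 (15 genes), 19.5% in PC9 (245 genes), 27.8% in HyB (52 genes) and 23.6% in N001 mycelium (378 genes). In N001 mycelium 6.43% of the genes near a copy under 10% were under 1 RPKM, against 36.8% of those near a copy at 50% or more. Even beside such a copy most genes had almost no methylation, with a median of 0.264% in N001 mycelium and 39.2% of the genes at 10% or more. The Spearman correlation across genes between the gene and its copy was 0.212 in PC15 (836 genes) to 0.310 in HyB (826 genes), and that between methylation and distance within the 1 to 5 kb range was -0.155 to -0.0805.

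The kind and surroundings of the TE went with different levels. In N001 mycelium the genes averaged 17.7% ± 0.43 beside Gypsy (623 genes with a level), 19.5% ± 0.64 beside DIRS (41), 16.3% ± 0.66 beside LINE (66), 10.1% ± 0.26 beside Copia (111) and 4.92% ± 0.12 beside HELPO elements (53). DIRS ranked differently in PC9, where its neighbours averaged 8.02% (32 genes) and those of Gypsy 13% (554). Of the 5 genes beside TIR elements, 2 had a level, with a mean of 36.0%. Genes beside a copy of up to 200 bp averaged 11.7% (261 genes with a level), those beside one of 0.2 to 1 kb 17.4% (274), of 1 to 3 kb 26.3% (83) and of over 3 kb 15.6% (278), so that the level did not grow steadily with the length of the copy. With 1 TE copy within 5 kb the mean was 13.3% (632 genes with a level), with 2 copies 23.5% (164) and with 3 or more 20.9% (100).

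Another gene lay between the gene and its nearest TE copy in 618 cases, of which 591 had a level and averaged 13.9% ± 0.37 in N001 mycelium, against 20% ± 0.48 in 305 of the 319 without one. Distance moves with this split, with medians of 3428.5 and 1714 bp. In N001 mycelium the means with and without a gene between were 17.2% (73 genes) and 21.6% (176) at 1 to 2 kb, 11.9% (125) and 19.1% (79) at 2 to 3 kb, 15.9% (207) and 16.9% (36) at 3 to 4 kb, and 11.8% (186) and 12.4% (14) at 4 to 5 kb. At 3 to 4 kb the order was the reverse in PC9 (11.4% and 7.08%) and HyB (8.66% and 7.01%). At 4 to 5 kb it was the reverse in PC15 (4.49% and 1.33%) and N001 primordium (12.2% and 11.8%), the latter value of each over 14 genes.

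The first comparison asks how the monokaryons PC9 and PC15, the parents of HyB, differ at these genes. It and the 4 comparisons that follow share groups, so their values are given side by side and not as independent results. By limma-trend on percentage points with Benjamini-Hochberg adjustment, methylation was higher in PC9 in 152 and lower in 39 of the 800 genes tested, 23.9% of them against 9.03% of all 11140 genes tested (6.47% higher, 2.56% lower). The difference was over 10 points in 142 of the genes that were higher and in 21 of those that were lower, beside 4.93% and 0.79% of all genes tested. By distance, 32.4%, 23.6%, 22% and 15.9% of the genes in the 4 classes from 1 to 5 kb were called, beside 42.4% within 1000 bp and 5.9% beyond 10 kb. By limma-trend on log2 of RPKM plus 1, mRNA was higher in PC9 in 133 and lower in 272 of 755 genes, 53.6% against 46.8% of all 10928 genes tested (16.1% higher, 30.6% lower). The median log2 change was -0.38 over the 755 and -0.23 over all genes tested.

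The mRNA counts need a reservation. Of the 755 genes, 32 reached 1 RPKM in PC15 libraries only, so that they entered the test through PC15, and all 32 were called lower in PC9. Without such genes 133 were higher and 240 lower of 723, 51.6% against 46.1% of all others tested. When the test ran on whole reads recovered from the RPKM with TMM scaling in edgeR, 180 were higher and 263 lower, and the median log2 change of all genes moved from -0.23 to 0.06.

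Opposite changes of methylation and mRNA between the monokaryons were frequent. Both were tested in 710 genes. Of 79 with higher methylation in PC9, 57 had lower mRNA, 6 had higher mRNA and 16 were not called. Of 31 with lower methylation, 18 had higher mRNA, 5 had lower mRNA and 8 were not called. Of the 57 genes, 22 reached 1 RPKM in PC15 libraries only. Without such genes 35 of 57 with higher methylation had lower mRNA, 61.4%, beside 55.3% of 380 over all genes tested and against 33.2% of all 723 of these genes lower in mRNA. Over all genes tested, 31.2% of 260 genes with lower methylation had higher mRNA, against the 58.1% of 31 here. Of the 373 genes called in mRNA, 287 (76.9%) were not called in methylation, beside 90.6% of the 4866 over all genes tested. Of the 110 called in methylation, 24 (21.8%) were not called in mRNA, beside 35.7% of 714. Leaving out any of the 3 PC15 mRNA libraries brought the 57 down to 34, since fewer genes then reached 1 RPKM in 3 libraries.

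**Figure D5:**
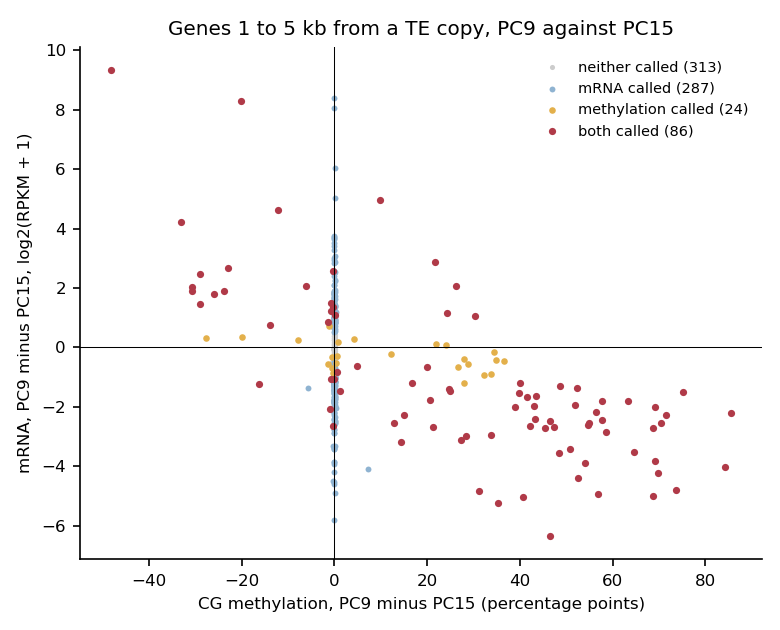
Difference in CG methylation (PC9 minus PC15, percentage points) against the log2 change of mRNA (PC9 minus PC15, on log2 of RPKM plus 1) for the 710 genes tested in both; each point is a gene, coloured by which test called it. The 86 genes called in both lie mostly at higher methylation with lower mRNA (57) or lower methylation with higher mRNA (18).

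Gene 1074553 (scaffold 2, 2209117 to 2209515, 4266 bp from a Gypsy_7 copy) is an example of the first kind. Its methylation was 8.88, 8.30 and 7.14% in PC15 and 90.9, 93.4 and 92.3% in PC9, and its mRNA was 12.7, 18.3 and 15.3 RPKM in PC15 and listed at 0 in all 3 PC9 libraries. Methylation differed by 84.1 ± 3.15 points (SE, adjusted p = 2.06e-12, limma with Benjamini-Hochberg adjustment), and mRNA was lower in PC9 at an adjusted p of 5.04e-12 in the same kind of test. Its neighbour 1024998 (scaffold 2, 2207744 to 2208071), on the same side of the same Gypsy_7 copy, had 3.73, 2.03 and 2.03% in PC15 and 96.0, 95.9 and 96.2% in PC9, the largest rise among these genes, but under 1 RPKM in every group. In HyB gene 1074553 kept 15, 10.1 and 11.1 RPKM with 34.1, 39.3 and 37.8% methylation, whereas in all 9 N001 libraries it was listed at 0 RPKM with a methylation of 65.5% in mycelium.

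Genes 159678, 701, 1081555 and 1027124 were also called higher in methylation and lower in mRNA in PC9. Genes 159678 and 1027124 reached 1 RPKM in PC15 libraries only, so they entered the test through PC15 and their calls in mRNA are no support for the pattern. Gene 159678 (4836 bp from a Gypsy_3 copy) went from 0.911, 0.857 and 0.518% in PC15 to 85.7, 86.1 and 87.1% in PC9, and from 5.5, 3.04 and 2.67 RPKM to a listed 0 in each PC9 library. Gene 701 (scaffold 3, 1461575 to 1461838, 1849 bp from a Copia_2 copy) went from 1.2, 0.114 and 0.364% to 74.4, 73.4 and 75.1% and from 41.3, 23.7 and 27.1 RPKM to 0.154, 0 and 0.170 RPKM, a log2 change of -4.80 ± 0.34 (SE, adjusted p = 7.01e-09, limma). Neither gene's PC9 libraries overlapped its PC15 libraries in either measure. In N001 mycelium gene 701 nevertheless had 22.6, 60.8 and 58.2 RPKM at 54.9, 58.5 and 55.5% methylation, and in HyB 23, 22.7 and 25.9 RPKM at 46.7, 45.6 and 43.7%, levels of mRNA near that of PC15. Gene 1081555 rose from 1.46% to 76.6% and gene 1027124, at 186 bp a short gene, from 25.7% to 97.2%, and both were listed at 0 RPKM in PC9.

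The reverse held at the start of scaffold 12. Gene 1098459 (scaffold 12, 32886 to 33746, 4629 bp from a Gypsy_43 copy) had 48.8, 47.8 and 48.4% methylation in PC15 and 0.311, 0.418 and 0.205% in PC9, the largest fall among these genes. Its mRNA was 0.170, 0.496 and 0 RPKM in PC15 and 663, 929.8 and 738 RPKM in PC9, the largest rise. On the log2 scale of RPKM plus 1 this was a change of 9.32 ± 0.25 (SE, adjusted p = 9.68e-14, limma), and methylation differed by -48.1 ± 1.35 points (SE, adjusted p = 6.17e-14). HyB had 214, 124 and 134 RPKM with 16.3, 17.6 and 16.5% methylation, between its parents in both. The neighbouring gene 1091118 (scaffold 12, 34091 to 35330) rose from 0.147, 0.0344 and 0.0342 to 244, 433 and 349.8 RPKM while its methylation went from 47.6, 46.8 and 48.1% to 24.2, 28.9 and 29.2%, so that it gave much mRNA in PC9 while still methylated.

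Other genes fell in methylation with a smaller rise in mRNA. Gene 165702 (1163 bp from a DIRS_2 copy) fell from 32.6, 32.6 and 35.4% to 0.515, 0.379 and 0.845% and its mRNA was 0.434, 0 and 0.189 RPKM in PC15 and 21.4, 21.2 and 21.8 RPKM in PC9. Gene 159855 (4885 bp from a Copia_7 copy) fell from 28.5, 31.6 and 33.4% to 0.625, 0.401 and 0.184% with 4.50, 3.34 and 2.75 RPKM in PC15 and 16.8, 15 and 19.9 RPKM in PC9. In both, every PC9 library was below every PC15 library in methylation and above it in mRNA.

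The largest changes in mRNA did not all come with a difference in methylation. Gene 1087569 (2168 bp from a Gypsy_1 copy) had 12.6, 10.1 and 7.23 RPKM in PC15 and 2660.1, 3851 and 4448 RPKM in PC9, a log2 change of 8.38 ± 0.52 (SE, adjusted p = 1.29e-09, limma), at 0.244% and 0.153% methylation. It is therefore a gene without methylation in either strain. Gene 152365 (scaffold 1, 4193343 to 4193772, 3831 bp from a Gypsy_1 copy) had 196, 323 and 291 RPKM in PC15 and 0, 0.0953 and 0.104 RPKM in PC9, and has no methylation level in PC9. Gene 1084798 (2624 bp from a Copia_14 copy) had 85.8, 82.6 and 74.9 RPKM at 17.6, 16.4 and 17.6% methylation in PC15 and 0.0519, 0 and 0 RPKM at 63.5, 63.9 and 63.7% in PC9. Gene 1084852 had 154, 44 and 55.3 RPKM in PC15 and was listed at 0 in PC9, again without a methylation level in PC9 and with 0.167% in N001 mycelium.

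The 96 genes without a PC9 methylation level bear on every count for that strain. In PC9 99.3% ± 0.60 of them were under 1 RPKM, against 61.8% ± 7.5 in PC15, 76.7% ± 0.60 in HyB and 88.2% ± 0.60 in N001 mycelium (SD over 3 libraries). Their methylation averaged 20.7% in PC15, 21.5% in HyB and 50% in N001 mycelium. Such genes made up 10.7% of those with a PC15 level, beside 33.3% of genes overlapping a TE, 16.7% within 1000 bp and 3.07% beyond 10 kb. Whether their sequence is present in PC9 was not tested, and a gene missing from PC9 and a silent gene cannot be told apart here. In the 800 other genes 25.1% were under 1 RPKM in PC9 and 14.7% in PC15.

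HyB was compared with the mean of its parents, which asks whether the dikaryon departs from the middle of PC9 and PC15. Methylation departed from that middle in fewer genes than it differed between the parents: 35 were higher and 53 lower of 800, 11% against 5.39% of all genes (2.18% higher, 3.2% lower). Which direction prevailed rested on the scale: on the log2 ratio of methylated to unmethylated percent, each plus 1, 70 were higher and 39 lower, and over all genes 421 and 270. The difference was over 10 points in 12 of the higher and 29 of the lower, beside 0.458% and 1.14% of all genes. By distance the calls made up 16.2%, 12.6%, 6.5% and 8.2% of the genes tested in the 4 classes, against 4.0% beyond 10 kb. In mRNA 179 were higher and 179 lower of 755, 47.4% against 40.3% of all genes by limma-trend (20.3% higher, 20% lower). A gene at the sum of unequal parents also departs from this mean of logs, and with whole reads in edgeR the split was 232 higher and 130 lower. Called against each parent separately in the same direction, 91 genes were higher and 38 lower than both parents in mRNA, 17.1% against 16.3% of all genes. In methylation 8 were higher and 3 lower than both, 1.38% against 1.06%, so both shares were near those of all genes.

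Gene 1076495 (scaffold 4, 3559195 to 3562539, 2262 bp from a Gypsy_3 copy) was more methylated in HyB than in either parent, at 72.9, 75.6 and 71.9% against 22.2, 31.8 and 28.3% in PC15 and 56.2, 54.4 and 57.0% in PC9 (adjusted p = 3.37e-09, limma). Its mRNA, 8.58, 6.06 and 5.98 RPKM in PC15, was listed at 0 in all PC9 and HyB libraries. Gene 1089275 (2324 bp from a Gypsy_3 copy) reached 38.2, 30.3 and 30.7% in HyB from 6.38, 7.23 and 5.69% in PC15 and under 1% in PC9, and was below 1% again in N001. Gene 171735 (1969 bp from a Gypsy_18 copy) stood at 37.1, 37.5 and 26.5% in HyB, 25, 24.6 and 24.1% in PC15 and 0.920, 1.17 and 0.520% in PC9.

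Genes 1085348, 168807 and 1045216 fell below both parents. Gene 1085348 (1299 bp from a Gypsy_18 copy) was at 24.8, 17.6 and 20.1% in HyB, 39.3, 43.9 and 44.7% in PC15 and 93.8, 77.4 and 96.0% in PC9 (adjusted p = 5.12e-08, limma). Gene 168807 had 18.8% in HyB against 33.7% and 89.6% in PC15 and PC9, and gene 1045216 had 14.8% against 20.8% and 79.0%. In N001 mycelium all 3 were more methylated than in HyB, at 67.7%, 67.1% and 58.3%.

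In mRNA, gene 31568 (scaffold 7, 310993 to 311438, 2464 bp from a Gypsy_43 copy) had 1904, 599.6 and 619 RPKM in HyB and at most 5.01 RPKM on average in any other group. The HyB libraries differed from one another, with replicate 1 the highest, but all were far above the parents' 1.48, 1.34 and 1.14 and 11.7, 2.21 and 1.10 RPKM (log2 change 8.12 ± 0.46, SE, adjusted p = 2.18e-09, limma). Its methylation was under 1% in every library. Gene 1082659 (2077 bp from a Gypsy_27 copy) had 229.7, 136 and 139 RPKM in HyB, 2.96, 1.59 and 2.45 in PC15 and 1.0, 0.394 and 0.616 in PC9. Gene 1104088 had 1.79, 232 and 259 RPKM in HyB, where replicate 1 lay close to the parents. Genes 1090145, 1101126 and 1098672 were below both parents, at 8.15, 1.32 and 8.83 RPKM in HyB against 167, 22 and 100.5 RPKM in PC15 and 490.0, 26.1 and 48.1 RPKM in PC9. All 3 had under 1% methylation in every library.

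N001 mycelium was compared with HyB, which sets 2 dikaryons in the same tissue side by side. Methylation was higher in N001 in 151 and lower in 18 of 800 genes, 21.1% against 7.52% of all genes by limma-trend (5.88% higher, 1.64% lower). The difference exceeded 10 points in 127 of the higher and 3 of the lower, beside 4.28% and 0.171% of all genes. By distance the share called was 30.2%, 21.4%, 19.2% and 12.1%, against 4.8% beyond 10 kb. In mRNA 29 were higher and 82 lower of 755, 14.7% against 11.1% of all genes (3.61% higher, 7.47% lower). Of 77 genes with higher methylation in N001 that were tested for both, 23 had lower mRNA, 1 had higher mRNA and 53 were not called, much as over all genes tested, where 29.5% of 373 were lower. Of 17 with lower methylation none had higher and 2 had lower mRNA by limma, beside 5.75% and 5.17% of 174 such genes over all genes tested.

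Gene 1085358 (scaffold 7, 2744661 to 2745948, 3463 bp from a HELPO1.1 copy) had 14, 12.4 and 13.1% methylation in HyB and 72.8, 64.2 and 72.4% in N001 mycelium, a difference of 56.6 ± 2.17 points (SE, adjusted p = 1.32e-11, limma). Its mRNA was 4.48, 2.65 and 2.80 RPKM in HyB and listed at 0 in the 3 N001 mycelium libraries. Gene 1043945 (1270 bp from a Gypsy_1 copy) had 8.94, 8.88 and 8.85% in HyB and 61.8, 60.1 and 60.8% in N001 mycelium, with under 1 RPKM in both. Gene 152365 combined 8.47, 1.93 and 9.02% methylation and 193, 197 and 208 RPKM in HyB with 72.7, 71.9 and 72.6% and 0.155, 0 and 0 RPKM in N001 mycelium. No library of a group overlapped the other in these values. Of the genes that were lower in N001, gene 1089275 had 33.1% in HyB and 0.308% in N001 mycelium, gene 199604 (3530 bp from a LINE_2 copy) had 12.8, 11.3 and 16.8% and 0.300, 0.400 and 0.150%, and gene 1076495 had 73.5% and 62.0%.

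Other genes differed in mRNA between the dikaryons with no methylation in either. Gene 1036190 (1045 bp from a Copia_2 copy) had 9.96, 22.9 and 24.6 RPKM in HyB and 603, 353 and 379 RPKM in N001 mycelium (log2 change 4.52 ± 0.47, SE, adjusted p = 3.70e-06, limma), and its small RNA moved with it, from 11.6, 21.9 and 11.7 to 433, 293 and 314 RPM. Gene 27394 had 5.03, 7.45 and 7.02 RPKM in HyB and 263, 95.9 and 84.0 RPKM in N001 mycelium. Gene 1087569, high in PC9, had 575, 83.8 and 91.6 RPKM in HyB and 2.11, 3.25 and 3.28 RPKM in N001 mycelium, although HyB replicate 1 was several times the others.

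In N001 many genes were called in mRNA between mycelium and primordium and few between primordium and fruitbody. Neither comparison called a gene in methylation. Between N001 mycelium and primordium no gene of the 800 was called in methylation by limma-trend, and none of all 11140 (0.0%), with 40 of the 800 at an unadjusted p under 0.05. Between primordium and fruitbody again none was called (0.0%), with 26 at an unadjusted p under 0.05. The mean methylation of the genes in the 3 N001 tissues lay within 16% to 16.4%, and libraries of the tissues overlapped. The primordium had 2 bisulfite libraries, which lowers what can be detected. In mRNA 114 genes were higher and 164 lower in primordium than in mycelium, 36.8% of 755 against 37.6% of all genes (15.8% higher, 21.8% lower), so that the genes near TEs changed about as often as all genes.

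Gene 1060293 (scaffold 11, 2675833 to 2677213, 1679 bp from a LINE_1 copy) had the largest rise, from 33.4, 105 and 76.4 RPKM in mycelium to 6076, 9694 and 9870.2 RPKM in primordium, and stayed at 13876, 6406 and 9279.9 RPKM in fruitbody. Every primordium library exceeded every mycelium library (log2 change 6.99 ± 0.40, SE, adjusted p = 4.63e-09, limma). Gene 1012126 (1047 bp from a Gypsy_8 copy) went from 1.93, 8.60 and 3.10 to 247, 621 and 608 RPKM and gene 1089861 (1489 bp from a Gypsy_7 copy) from 3.34, 2.48 and 1.78 to 157, 279 and 291 RPKM. All 3 had under 1% methylation in every N001 library.

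Of the genes that fell, gene 1105619 (1175 bp from a Copia_2 copy) had 50.6, 124 and 115 RPKM in mycelium and 1.04, 0.427 and 0.323 RPKM in primordium. Gene 1047903 had 9.27, 109 and 117 and 0.300, 0.443 and 0.112 RPKM, with mycelium replicate 1 far below replicates 2 and 3. Gene 1104088 had 583, 1326 and 304 and 4.02, 1.03 and 0.346 RPKM, with mycelium replicates that differed several fold. All 3 had under 1% methylation too.

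Between primordium and fruitbody 2 of the 755 genes were called in mRNA, 0.265% against 0.275% of all genes (0.0458% higher, 0.229% lower), with 64 at an unadjusted p under 0.05, and edgeR on whole reads also called 2. Gene 1092036 (4463 bp from a Gypsy_29 copy) had 36.2, 104 and 109 RPKM in primordium and 704, 335 and 436 RPKM in fruitbody (log2 change 2.64 ± 0.37, SE, adjusted p = 0.00941, limma). Gene 1095843 (3887 bp from a Gypsy_5 copy) had 25.4, 18.7 and 18.7 RPKM in primordium and 5.82, 5.28 and 6.64 RPKM in fruitbody (log2 change -1.66 ± 0.33, adjusted p = 0.0463, limma). The groups did not overlap in either gene. Neither call was secure: without fruitbody replicate 1 the adjusted p of gene 1092036 was 0.0992, and that of gene 1095843 passed 0.05 in each of the 6 tests that dropped a library, in the same direction.

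In N001 mycelium the share of genes with small RNA had no even order within 1 to 5 kb of a TE and was higher beyond 10 kb. The share of the genes with at least 10 RPM of small RNA was 31.8%, 31.8% and 29.7% in PC15, 15.6%, 39.9% and 39.1% in PC9 and 31.3%, 33.3% and 31.1% in HyB. It was 38.2%, 41.5% and 42.6% in N001 mycelium, 42.7%, 30.5% and 30.6% in primordium and 35.4%, 43.4% and 37.7% in fruitbody. PC9 replicate 1, the library with the most small RNA reads, stands apart, and without it the PC9 mean was 39.5%. The group means of 31.1% ± 1.2, 31.5% ± 14, 31.9% ± 1.2, 40.8% ± 2.3, 34.6% ± 7.0 and 38.8% ± 4.1 were below those of all genes in each group, which ran from 36.3% in PC15 to 51.8% in N001 mycelium. In N001 mycelium the 4 distance classes from 1 to 5 kb had 37.6%, 43.7%, 39.1% and 44%, genes within 1000 bp 37.6% and genes beyond 10 kb 54.2%. No small RNA read fell in 15 of the 937 genes in any library.

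The mean level of small RNA rested largely on few genes. At 1 to 2 kb the mean was 41.4 RPM in PC15, 46.2 in PC9, 61.8 in HyB, 103 in N001 mycelium, 139 in primordium and 178 in fruitbody. Gene 168614 alone held 32.4% to 66.1% of all small RNA over the 937 genes in each N001 library, and the 10 leading genes of a library held 39.4% to 78.7%.

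Gene 168614 (scaffold 6, 2668218 to 2670360) and its neighbour 1106078 (scaffold 6, 2670662 to 2671008) lie 1831 and 1183 bp from the same Gypsy_9 copy of 378 bp. Gene 168614 had 34.1, 1.56 and 0 RPM in PC15 and 2830.4, 2128 and 2130.2 RPM in PC9. It reached 4195, 11027 and 13231 RPM in HyB, 29025, 13158 and 12665 RPM in N001 mycelium, 28979, 25191 and 26164 RPM in primordium and 40457, 36231 and 32442 RPM in fruitbody. Every library outside PC15 was above every PC15 library by more than an order of magnitude, and HyB was above PC9, the higher of its parents.

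The neighbour 1106078 had 3.03, 7.81 and 0 RPM in PC15, 2610.3, 2017 and 2086 RPM in PC9 and 1809, 1116 and 1169.7 RPM in N001 mycelium, and was the largest rise from PC15 to PC9 under the naming rule (log2 change 9.66 ± 1.08, adjusted p = 3.13e-06, edgeR with Benjamini-Hochberg adjustment). Both genes were also less methylated in PC15 than in the other groups, but beyond PC15 the order differed: for gene 168614 PC9 had the least small RNA and the highest methylation of PC9, HyB and N001 mycelium. Gene 168614 was at 8.19, 7.99 and 8.46% in PC15, 80.5, 81.6 and 81.5% in PC9, 40.1, 38.8 and 42.1% in HyB and 63.9, 63.7 and 63.2% in N001 mycelium, and gene 1106078 at 19, 16 and 16.5%, 67.2, 70.3 and 69.5%, 57.0, 58.9 and 52.9% and 60.5, 55.5 and 56.3%. Their mRNA was low in PC15, 0.255, 1.02 and 0.870 and 1.37, 5.18 and 2.94 RPKM, and in other groups it was at most 0.606 RPKM in a library.

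Genes 26706 (scaffold 4, 3403495 to 3406543) and 1047577 (scaffold 8, 2145697 to 2148745) had far more small RNA in HyB than in any other group. Gene 26706 had 533, 931 and 995 RPM in HyB and was listed at 0 in every other library except fruitbody replicate 3, at 5.51 RPM. It entered the test through HyB alone, so its adjusted p of 6.83e-07 against the parents' mean by edgeR is no support for the difference. Gene 1047577 had 219.9, 205 and 250.1 RPM in HyB and at most 3.12 RPM in any other library. Both genes are 3049 bp long, and they lie 1612 and 1500 bp from Gypsy_9 copies of 379 and 378 bp, so they may be copies of each other whose reads cannot be told apart. With DESeq2 the difference between N001 mycelium and HyB was not called for gene 26706 (adjusted p = 0.199).

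Gene 1099796 (scaffold 1, 3729373 to 3731409, 1427 bp from a Gypsy_1 copy) had small RNA in PC15, at 6489.5, 2537 and 2789 RPM, and 0.522, 0 and 2.5 RPM in PC9 (log2 change -12.05 ± 0.97, adjusted p = 4.74e-08, edgeR). HyB held 94.3, 284 and 186 RPM, between its parents, and N001 mycelium 6.06, 2.65 and 1.34 RPM. It was methylated in every group, at 42.8% in PC15 and 72.1% in PC9, and gave under 1 RPKM of mRNA in each. Gene 1081497 (3360 bp from a Gypsy_31 copy) had 13.7, 387 and 417 RPM in PC15, with replicate 1 far below replicates 2 and 3, and was listed at 0 in PC9. Gene 1026345, 177 bp long, had 0 RPM in each PC15 library and 33.2, 2.35 and 1.25 RPM in PC9, and without PC9 replicate 1 its adjusted p was 0.345 (edgeR).

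The other genes with the most small RNA differed in kind. Genes 1091172 and 1088906 were unmethylated, under 1% in every library, and gave 84.8 and 312 RPKM of mRNA in N001 mycelium, with 4203, 2305 and 2466 and 1573, 1026 and 801 RPM of small RNA. Gene 1024520 (1407 bp from a Gypsy_25 copy) was methylated at 23.8% in PC15 and 77.3% in PC9 and gave no more than 0.091 RPKM in any library. Its small RNA was 11.4, 1087 and 1527 RPM in PC15, 143, 3071 and 3821 in PC9 and 27.3, 1320.5 and 1195 in N001 mycelium. Replicate 1 was low in every group, so its groups overlapped.

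Tested on counts by edgeR's quasi-likelihood test with Benjamini-Hochberg adjustment, small RNA was higher in PC9 in 66 and lower in 95 of 464 genes, 34.7% against 30% of all 6670 genes tested (14.6% higher, 15.3% lower). Scaled by library totals in place of TMM, 62 were higher and 55 lower, and the median log2 change of all genes moved from 0.05 to 0.55. DESeq2 gave 53 higher and 135 lower, so the balance of directions rests on the scaling. In HyB 90 were higher and 39 lower than the mean of the parents, 27.8% against 23.2% of all genes (15.9% higher, 7.27% lower), and without HyB replicate 3 the counts were 60 and 18. Against both parents in the same direction, 38 were higher and 11 lower, 10.6% against 9.55% of all genes.

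Between N001 mycelium and HyB 5 genes were higher and 20 lower, 5.39% against 4.29% of all genes (1.29% higher, 3.0% lower), and with library totals 13 and 13. Leaving out N001 mycelium replicate 1, 2 or 3 brought the total to 14, 13 and 14. In primordium 29 were higher and 12 lower than in N001 mycelium, 8.84% against 6.73% (3.94% higher, 2.79% lower), and with library totals 24 and 16. That total fell to 12 without mycelium replicate 3, to 15 without mycelium replicate 2, and to 21, 16 and 15 without primordium replicate 1, 2 or 3. Between primordium and fruitbody none was called by edgeR, beside 0.045% of all genes, with 34 at an unadjusted p under 0.05 and 1 called by DESeq2.

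Small RNA changed with mRNA at some genes that were unmethylated. In gene 1060293, which rose in primordium mRNA, small RNA went from 36.3, 15.9 and 14.8 RPM in mycelium to 974, 1864 and 1783 RPM in primordium (log2 change 6.81 ± 0.90, adjusted p = 1.86e-04, edgeR). Gene 1012126 went from 0, 3.98 and 1.34 to 169, 177 and 222 RPM. Gene 1105619 went the other way in both, with 22.7, 67.7 and 53.7 RPM in mycelium and 7.86, 0 and 0 RPM in primordium, a call (adjusted p = 0.0217, edgeR) that was lost without mycelium replicate 2 or 3 or primordium replicate 2 or 3. Of the genes with higher methylation in PC9 and a small RNA test, 12 had higher small RNA, 18 had lower and 36 were not called. As shares these are 18.2% higher and 27.3% lower, beside 21.7% and 20.4% of the 387 such genes over all genes tested, so higher methylation came with small RNA calls in both directions.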

How the data were processed

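mRNA, small RNA and bisulfite libraries of Pleurotus ostreatus were analysed from tables deposited by the authors. Gene mRNA was deposited by the authors as RPKM, small RNA as counts per gene and per TE copy, and methylation as a fraction from 0 to 1, here multiplied by 100. The submitters' processing notes name BS-Seeker2, FastQC and STAR 2.3.16. The genome build, the small RNA aligner, the counting, its use of strand and its treatment of reads with several matches are not given in the sources used here. Of the gene ends, 8 had a scaffold name appended, which was removed, and HELPO1 names written with a comma were read with a point.

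All 6 groups entered a group-means fit per assay, with 5 two-sided comparisons, Benjamini-Hochberg adjustment over all genes tested and a threshold of 0.05. mRNA was tested as log2(RPKM + 1) with limma 3.58.1 (limma-trend) in genes with at least 1 RPKM in at least 3 libraries, so log2 changes understate those of low genes. Methylation was tested in percentage points with limma-trend in genes with a value in every library. Small RNA counts were tested with edgeR 4.0.16 (quasi-likelihood, TMM, filterByExpr) in R 4.3.3. Descriptions used Python 3.11.15 with pandas 2.3.3. The steps were tested on simulated data. Replicates are described as biological in the design text, and p-values measure the spread between them.

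Named genes were those called without overlap between the groups and with the largest changes (up to 3 rises and 3 falls per comparison in mRNA and methylation, 2 and 2 in small RNA), up to 5 with opposite calls, the 5 most methylated, the 5 with most small RNA, and genes beside the edges of the distance range. A few others were named after their values were seen. The genes, lists and rules were chosen with earlier results of these data known. Alternatives covered the pseudocount, filters on low values, edgeR on whole reads recovered from RPKM (95.5% to 95.8% of values within 0.01 of a whole read), DESeq2 1.42.0, library totals, a log2 scale for methylation, TE copies of at least 200 bp, leaving out each library, and a replicate block. Replicate numbers were taken as pairs where every same-numbered pair of libraries deviated together with a correlation over 0.1. This held in mRNA for PC9 and PC15 (0.307, 0.292 and 0.207) and for N001 mycelium and HyB (0.334, 0.139 and 0.318). It also held in methylation for N001 fruitbody and primordium (0.658 and 0.480). The mRNA libraries HyB replicates 2 and 3 and primordium replicates 2 and 3 were nearly identical, where the chi-square over its degrees of freedom was 3.82 and 1.56, whereas other pairs had 26.1 to 524. Both exceed sampling noise and they were kept as separate replicates, which does not show that they are independent samples. If they are not, the spread behind the mRNA p-values is too small. In small RNA, replicates 2 and 3 were the closest pair in every group, as in PC15 (2.47, against 13.3 and 14.8 for the pairs with replicate 1).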

Additional observations from a re-analysis of the deposited data

How the results depend on the processing

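Of 731 alternatives for the 68 results of named genes, 703 kept direction and side of the threshold, 28 in 7 results lost the call and none reversed. These results were picked from the same data as calls with the largest changes, so the counts do not measure stability. Of 275 alternatives for the other results, 228 stayed within their limits and 47 moved. The limit for a group mean was 1 SD over its libraries. Leaving out 1 of those libraries cannot move the mean that far, so such alternatives stayed by construction and do not measure stability. Counts of called genes leaving out 1 library at a time ranged, in the order PC9 and PC15, HyB and parents, N001 mycelium and HyB, primordium and mycelium, fruitbody and primordium, over 319 to 383, 270 to 384, 76 to 107, 201 to 275 and 0 to 6 in mRNA, 185 to 194, 79 to 91, 162 to 167, 0 to 0 and 0 to 0 in methylation, and 124 to 174, 78 to 167, 13 to 24, 12 to 37 and 0 to 0 in small RNA. Primordium and fruitbody mRNA gave 0 without fruitbody replicate 1, 6 without fruitbody replicate 2 and 1 without any other library. Opposite calls of methylation and mRNA, 75 in all, ranged over 50 to 76 and were 115 with no filter on low values.

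Requiring a call against each parent left 129 genes in mRNA, 11 in methylation and 49 in small RNA for HyB. Fruitbody and primordium gave 1 mRNA call with no filter on low values and 1 with nearly identical libraries merged, and 1 small RNA call with DESeq2. With TE copies of at least 200 bp, 742 genes qualified, 717 of them shared, and mean methylation was 6.94%, 13.8%, 10.4%, 18.5%, 19.05% and 18.7% in PC15, PC9, HyB and the N001 tissues. The share under 1 RPKM was then 37.9% in PC9, 28.7% in HyB and 32.6%, 34.6% and 35.9% in N001. With a methylation level in every library only, mean methylation was 4.18% in PC15, 7.42% in HyB and 11.9%, 12.2% and 12% in N001, and the share under 1 RPKM 14.7%, 25.1%, 17.8%, 20.5%, 22.5% and 23.6%. The share with small RNA was then 34.2% in PC15, 35.3% in HyB and 46% in N001 mycelium. The cause was not tested.

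With the replicate block the counts were 432, 393, 118, 315 and 3 in mRNA, 191, 94, 173, 0 and 0 in methylation and 163, 131, 26, 39 and 0 in small RNA, and opposite calls 78 or 75. The block changed no count with paired numbers by over 1.5 times. Small RNA reads in genes were few in some libraries, and methylation coverage is unknown.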
